A study of Mus musculus with 6 samples.

Results

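Clearance of dying cells and residence in a tissue are both read in macrophages from small sets of genes, and 10 of them were followed here across 6 bone marrow-derived macrophage (BMDM) libraries. The 10 genes were the receptors Mertk and Axl, the bridging ligands Gas6, Pros1 and Mfge8, the secreted products Selenop and Igf1, and the markers of resident macrophages Cx3cr1, Folr2 and Tmem119. They were chosen by name, and each matched 1 row among the 54446 genes of the count table. BMDMs came from the marrow of male BALB/c mice aged 6 to 8 weeks and were grown for 7 days in DMEM with 10% serum and 20% medium conditioned by L929 fibroblasts, which supplies CSF-1. How many mice gave each library was not given in the sources used here. M0 macrophages were left unpolarized, M1 macrophages received IFN-γ (20 ng/mL) with LPS (50 ng/mL), and M2 macrophages received IL4 (20 ng/mL), the last 2 states for 24 hours. How long M0 macrophages were kept after differentiation was not given in the sources used here, and a difference in time of culture, if there was one, cannot be told apart from state in the ratios to M0. Each state was sequenced with DMSO as control and with regorafenib (1 µM), an oral inhibitor of several kinases, so that there was 1 library per condition. In M1 and M2 the drug was given 1 hour before polarization, and the time of M0 macrophages with it was not given in the sources used here. A difference in that time, if there was one, cannot be told apart from state when the drug ratios of M0 are set beside those of M1 and M2.

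Mertk and Axl belong, with Tyro3, to the TAM family of receptor tyrosine kinases. They do not touch the dying cell themselves. Gas6 and protein S (Pros1) bind the phosphatidylserine that a dying cell exposes and, at their other end, the receptor, while Mfge8 links the same lipid to αv integrins. Signalling through TAM receptors also dampens responses to Toll-like receptors and interferons. Selenop carries selenium in plasma, Igf1 is a growth factor that macrophages secrete during tissue repair, Cx3cr1 is the receptor of fractalkine, Folr2 is a folate receptor of resident and tumor-associated macrophages, and Tmem119 is a surface marker of microglia.

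Part of how these proteins act can be read from their coding sequences (GRCm38, Gencode transcripts). A selenocysteine is encoded by TGA, which elsewhere stops translation. The Selenop transcript held 10 in-frame TGA codons within its 380 codons, the first at codon 59 and the other 9 between codons 259 and 377. The stretch from the fourth of them (codon 318) to the last (chr15:3279519-3279698, plus strand, last coding exon) is shown for the density of these codons, with the in-frame TGA codons in capitals. The Mfge8 stretch (chr7:79145284-79145340, minus strand) is shown for the codons of arginine, glycine and aspartate, the tripeptide by which the protein binds integrins. They start at codon 87, the only such site in its 463 codons, and are in capitals.
Selenop: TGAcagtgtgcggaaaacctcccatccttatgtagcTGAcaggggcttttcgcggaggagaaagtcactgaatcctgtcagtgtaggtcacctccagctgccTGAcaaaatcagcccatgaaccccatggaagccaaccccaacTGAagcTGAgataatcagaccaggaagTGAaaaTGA
Mfge8: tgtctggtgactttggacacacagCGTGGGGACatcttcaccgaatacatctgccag

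The 6 libraries held between 25359309 and 34898342 counts, and TMM factors (the edgeR scaling for composition) were between 0.820 and 1.12. Counts were divided by the scaled totals to give CPM, a level relative to the size of the library. With 1 library on each side, the difference between conditions was given as a log2 ratio with a 95% interval from the counts alone. The interval covers counting error only. A gene was called when either library of the pair had at least 10 counts for it, when it differed at least 2-fold and its interval did not reach 0. No such call has a replicate check. The BMDMs carried the macrophage markers in all 6 libraries (all 7 genes present, summed level 21861 to 48689 CPM). The markers of T cells (0 to 0.667 CPM) and B cells (0 to 0.228 CPM) were near 0, with Cd3e, Cd3d, Cd3g, Cd8a, Ms4a1 and Pax5 at 0 counts everywhere. Dendritic cell markers summed to 0.455 to 4.56 CPM (Siglech at 0), mast cell and basophil markers to 0.0548 to 4.44 CPM (5 of 6 genes at 0), osteoblast markers to 8.59 to 17.3 CPM and neutrophil markers to 84.8 to 158 CPM (Ly6g at 0). In such bulk samples, fewer cells of a type and less RNA per cell cannot be told apart.

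**Figure D1:**
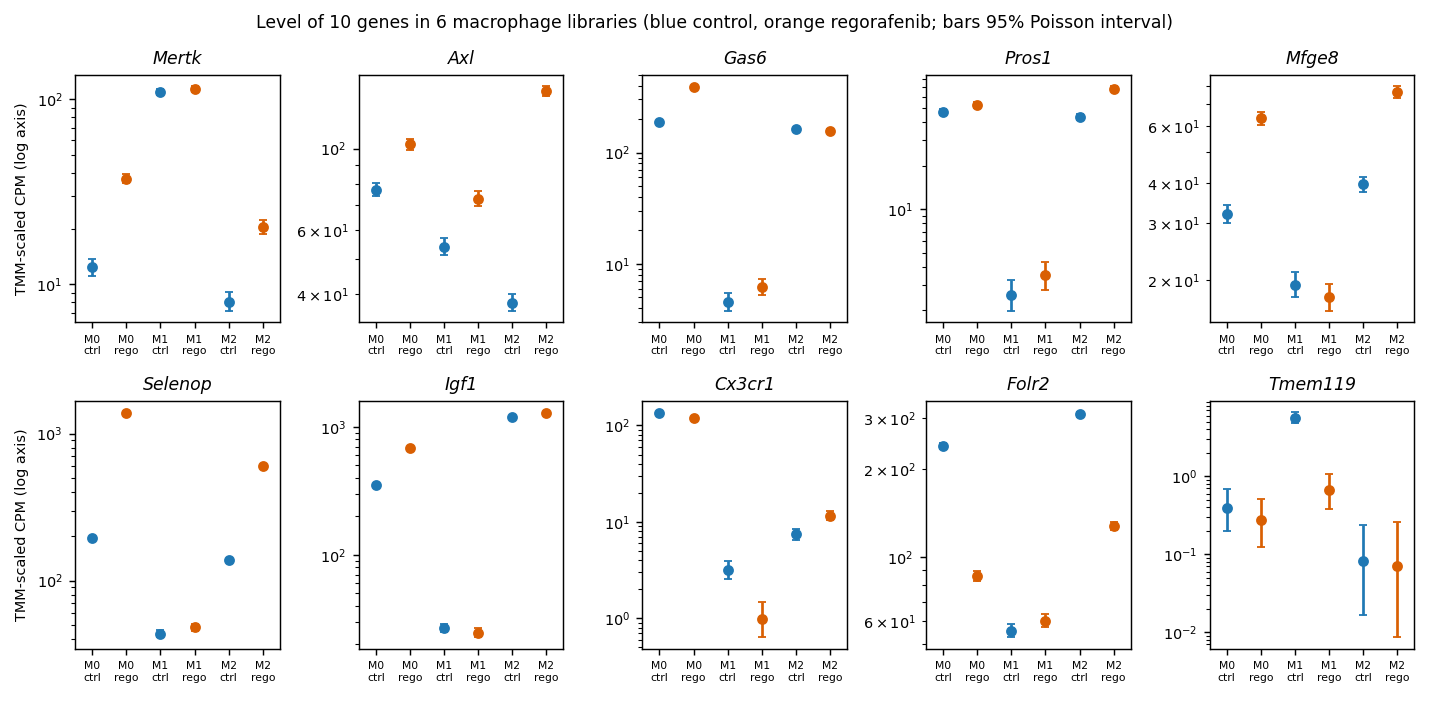
Level of each of the 10 genes in the 6 libraries, in TMM-scaled CPM on a log axis that differs between panels. Blue points are control and orange points regorafenib, and bars are 95% Poisson intervals of the count. Gas6, Pros1, Igf1 and Cx3cr1 lay lowest in both M1 libraries, whereas Mertk lay highest there.

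Levels per kilobase of exon differed widely among the 10 genes. In M0 control macrophages, Folr2 was the highest with 155 CPM per kb, followed by Gas6 with 74.3, Selenop with 68.2, Igf1 with 35.5 and Cx3cr1 with 29.6 CPM per kb. Axl (15.3), Pros1 (11.5), Mfge8 (6.82) and Mertk (2.85 CPM per kb) came next. Tmem119 was last with 0.169 CPM per kb from 12 counts, so that this defining marker of microglia was barely detected in M0 control. In M1 control it reached 2.44 CPM per kb from 146 counts, above Gas6 (1.79) and Pros1 (0.625 CPM per kb). The order changed between conditions. Selenop led in M0 with regorafenib (489 CPM per kb, rank 47 of 54409 genes with a length), Folr2 in M2 control (199 CPM per kb) and again Selenop in M2 with regorafenib (212 CPM per kb). In both M1 libraries the leaders were Folr2 (36.1 and 39.0 CPM per kb) and Mertk (25.3 and 26.3 CPM per kb).

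The question of polarization by IFN-γ and LPS was answered with the largest differences. Gas6, Pros1, Selenop and Igf1 were lower in M1 in both treatments and Mertk was higher. Axl stayed within 2-fold in both treatments, and Mfge8 did so in control. In control macrophages, 2 of the 10 genes were called higher in M1 than in M0, against 16.7% of all genes tested, and 6 were called lower, against 18.7%. With regorafenib the counts were again 2 higher (15.8% of all genes) and 6 lower (20.2%). The median log2 ratio of the 10 genes was -2.13 in control, beside -0.05 for all genes. Both comparisons were also fitted together by the quasi-likelihood test of edgeR, state and treatment being additive terms over the 6 libraries, whose residual is how far the state difference varied with treatment and not a biological replicate. In that fit 17.2% of the 14110 genes tested rose and 19.4% fell in M1 at an adjusted p under 0.05, and 8 of the 10 genes passed. Marker sums moved with the state as well. From M0 to M1, the monocyte markers went from 54.7 to 116 CPM in control and from 56.4 to 56.1 CPM with regorafenib, and the neutrophil markers from 84.8 to 157 CPM and from 158 to 110 CPM. Most of the monocyte sum was Vcan (44.0 to 114 CPM in control and 33.3 to 54.9 CPM with regorafenib), whereas Ccr2 of the same list went from 10.6 to 1.12 CPM and from 23.0 to 0.788 CPM (fitted log2 fold change -3.99, edgeR adjusted p = 0.0021). The endothelial markers went from 142 to 60.2 CPM in control and from 209 to 63.4 CPM with regorafenib, and the fibroblast markers from 10.7 to 24.8 CPM and from 22.3 to 31.8 CPM. Their part in the differences between M1 and M0 was not tested.

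The bridging ligands were all lowest in M1, Gas6 and Pros1 by far. Gas6 had 5812 and 12900 counts in the M0 control and regorafenib libraries, 118 and 150 in M1, with 5961 and 4382 in M2. Both M1 libraries thus lay far below the other 4. The log2 ratio of M1 to M0 was -5.37 (95% interval -5.65 to -5.11) in control and -5.97 (-6.22 to -5.74) with regorafenib, or 41.4-fold and 62.9-fold lower (edgeR adjusted p = 0.00039). Pros1, better known as an anticoagulant cofactor of plasma, had 1446 and 1723 counts in M0, 66 and 84 in M1, with 1594 and 1911 in M2. Here too the M1 libraries did not overlap with the rest, and the log2 ratio was -4.20 (-4.58 to -3.85) in control and -3.91 (-4.24 to -3.59) with regorafenib (edgeR adjusted p = 0.00035). Mfge8 had 984 and 2088 counts in M0, 499 and 425 in M1, with 1444 and 2145 in M2. Its M1 libraries were again the lowest, but the difference was smaller, with a log2 ratio of -0.73 (-0.89 to -0.57) in control, which was not called, and -1.84 (-2.00 to -1.69) with regorafenib, which was (edgeR adjusted p = 0.026 for -1.26 across treatments). Without the M0 regorafenib library the adjusted p of Mfge8 was 0.061.

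The receptors took another course. Mertk had 380 and 1230 counts in M0, 2829 and 2751 in M1, with 295 and 573 in M2. Its M1 libraries were the highest, 8.85-fold above M0 in control (log2 ratio 3.15, 2.99 to 3.30) and 3.06-fold above M0 with regorafenib (1.61, 1.52 to 1.71), with an edgeR adjusted p of 0.0063. Axl had 2369 and 3384 counts in M0, 1392 and 1760 in M1, with 1385 and 4028 in M2, so that its M1 libraries lay within the range of the others. The log2 ratio of M1 to M0 for Axl was -0.52 (-0.61 to -0.42) in control and -0.49 (-0.58 to -0.41) with regorafenib, short of 2-fold in both (edgeR adjusted p = 0.35). The third TAM receptor, Tyro3, had at most 14 counts in any library.

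The balance within each pair therefore differed between states. Counted per kilobase, Mertk stood at 0.186 of Axl in M0 control, 0.422 in M0 with regorafenib, 2.36 and 1.81 in the M1 libraries, and 0.247 and 0.165 in the M2 libraries. Mertk exceeded Axl in both M1 libraries and in no other. Gas6 exceeded Pros1 per kilobase in every library, 6.45-fold in M0 control, 12.01-fold in M0 with regorafenib, 2.87-fold and 2.86-fold in M1 control and regorafenib, 6.0-fold in M2 control and 3.68-fold in M2 with regorafenib. Over the 6 libraries, which fall into 3 states and share the scaling, the levels of Gas6 and Pros1 correlated with r = 0.98 and those of Mertk and Axl with r = 0.07, each on the log2(CPM + 1) scale.

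**Figure D2:**
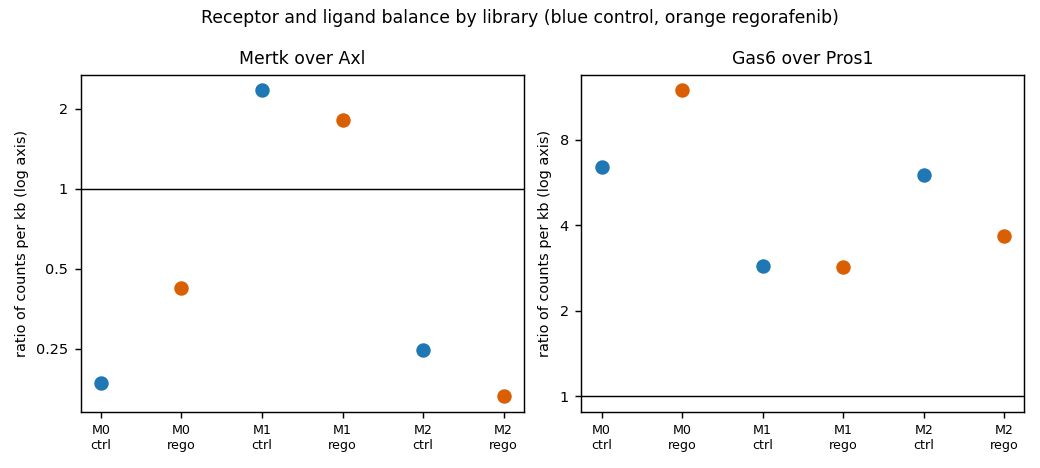
Ratio of counts per kilobase of exon, Mertk over Axl (left) and Gas6 over Pros1 (right), in each of the 6 libraries on a log axis, with blue for control and orange for regorafenib. The line marks a ratio of 1, which Mertk over Axl passed in both M1 libraries (2.36 and 1.81).

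Secreted products followed the ligands. Selenop had 5951 and 45827 counts in M0, 1128 and 1157 in M1, with 5006 and 16828 in M2. The M1 libraries were the lowest and nearly equal, so the log2 ratio of M1 to M0 of -2.15 (-2.24 to -2.06) in control and -4.86 (-4.94 to -4.77) with regorafenib differed through the M0 libraries (edgeR adjusted p = 0.012). Igf1 had 10805 and 22695 counts in M0, 691 and 594 in M1, with 43775 and 36140 in M2. The 3 states did not overlap, in the order M1, M0, M2, and M1 was 13.2-fold below M0 in control and 27.9-fold below it with regorafenib (log2 ratios -3.72, -3.83 to -3.61, and -4.80, -4.92 to -4.69, edgeR adjusted p = 0.00079).

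Among the markers of residence, Cx3cr1 had 4099 and 3949 counts in M0, 83 and 24 in M1, with 271 and 324 in M2. It was high in both M0 libraries and in no polarized library. M1 was 41.5-fold lower than M0 in control and 120-fold lower with regorafenib (log2 ratios -5.38, -5.71 to -5.06, and -6.91, -7.55 to -6.34, edgeR adjusted p = 0.0012). Folr2 had 7374 and 2828 counts in M0, 1440 and 1453 in M1, with 11257 and 3568 in M2. Its M1 libraries were the lowest, with a log2 ratio of -2.11 (-2.19 to -2.03) in control and -0.51 (-0.60 to -0.42) with regorafenib (edgeR adjusted p = 0.055). Of the alternatives, the edgeR adjusted p of Folr2 was 0.0053 with no filter on low counts and 0.069 with the size factors of DESeq2, and the DESeq2 test gave 0.015. Over the left-out libraries the fitted log2 fold change of Folr2 ran from -2.06 to -0.56. Tmem119 had 12 and 9 counts in M0, 146 and 16 in M1, with 3 and 2 in M2. The M1 control library alone held most of its reads, and the rise in M1 (log2 ratio 3.85, 3.01 to 4.84, in control, and 1.28, 0.02 to 2.64, with regorafenib, edgeR adjusted p = 0.027) was lost without that library (adjusted p = 0.19) or without the M0 control library (adjusted p = 0.22). Scaling by total counts moved the median of all genes in M1 against M0 from -0.05 to -0.49 in control and from -0.09 to -0.51 with regorafenib on the log2 scale. The direction of all 10 genes was kept under it, the call of Tmem119 with regorafenib was lost, and Mfge8 in control moved past the 2-fold line (log2 ratio -1.17).

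**Figure D3:**
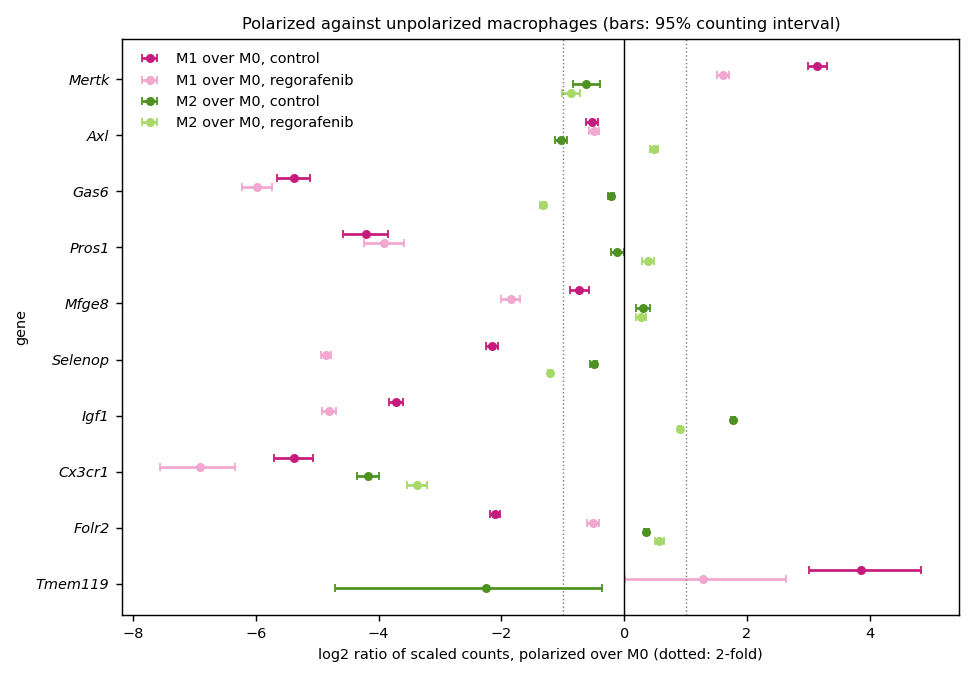
Log2 ratio of scaled counts of polarized over unpolarized macrophages for each gene, with M1 in pink and M2 in green and the regorafenib libraries in the lighter shade. Bars are 95% counting intervals and dotted lines mark 2-fold, and Tmem119 in M2 with regorafenib is left out for having under 10 counts. The pink points of Gas6, Pros1, Igf1 and Cx3cr1 lie at -3.72 or below, those of Mertk at 1.61 and 3.15.

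The upstream sequences of these genes were read from RefSeq promoters (GRCm38.p6), in which 9 of the 10 genes had 12 start sites. The 250 bases before the start are shown for Mertk, which rose in M1, and for Gas6, Pros1 and the first start of Selenop, which fell. Capitals mark every match, on either strand, to letters bound by factors that polarization is known to use. These were GAGGAA (the core of PU.1), TTC and GAA separated by 4 bases (STAT6), GAAANNGAA (interferon response), GGGNNTTCC (NF-κB), AGGTCA (nuclear receptors), TGACG (CREB), TGCTGA (MAF) and CACCC (KLF). Mertk lies at chr2:128698665-128698914 (plus strand), Gas6 at chr8:13494536-13494785 (minus), Pros1 at chr16:62854057-62854306 (plus) and Selenop at chr15:3270517-3270766 (plus).
Mertk: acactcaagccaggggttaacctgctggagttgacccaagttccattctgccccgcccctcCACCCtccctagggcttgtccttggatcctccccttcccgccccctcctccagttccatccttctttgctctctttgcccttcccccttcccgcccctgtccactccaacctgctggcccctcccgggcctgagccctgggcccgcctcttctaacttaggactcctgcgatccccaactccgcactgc
Gas6: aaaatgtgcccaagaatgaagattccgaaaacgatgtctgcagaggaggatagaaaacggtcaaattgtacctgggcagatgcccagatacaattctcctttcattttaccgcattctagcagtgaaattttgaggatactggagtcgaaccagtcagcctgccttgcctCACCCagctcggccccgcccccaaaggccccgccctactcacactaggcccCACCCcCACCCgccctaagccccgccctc
Pros1: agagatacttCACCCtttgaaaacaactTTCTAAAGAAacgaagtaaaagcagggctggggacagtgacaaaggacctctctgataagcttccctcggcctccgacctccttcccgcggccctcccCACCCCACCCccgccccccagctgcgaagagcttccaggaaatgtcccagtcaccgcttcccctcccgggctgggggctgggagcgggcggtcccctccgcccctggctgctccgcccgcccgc
Selenop: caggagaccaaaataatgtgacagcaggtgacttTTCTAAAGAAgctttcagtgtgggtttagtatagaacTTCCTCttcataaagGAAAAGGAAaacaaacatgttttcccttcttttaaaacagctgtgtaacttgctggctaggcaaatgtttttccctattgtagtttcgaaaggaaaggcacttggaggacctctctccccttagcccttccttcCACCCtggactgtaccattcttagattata

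In the Mertk window only the KLF letters matched, once, 189 bases before the start, and in the Gas6 window these letters matched at 80, 29 and 23 bases before the start. The stretch just after the start lay whole in a Gencode transcript for Pros1 and Selenop, and in none for Mertk and Gas6. The distances for Mertk and Gas6 thus rest on the RefSeq start alone. The KLF letters occurred in 52% of all 32851 windows of this length. The Pros1 window held the STAT6 letters 222 bases before the start, which occurred in 5.85% of all windows. The first Selenop window held the STAT6 letters at 216 bases, the PU.1 letters (23.3% of all windows) at 179 bases and the interferon response letters (7.13%) at 164 bases. The nuclear receptor letters (14% of all windows) were found for Igf1, the CREB letters (17.8%) for Selenop and the MAF letters (16.1%) for Folr2. The NF-κB letters (4.98%) were found in no window of the 9 genes. In the 4 windows shown no match overlapped another. A match of letters is a description of the window and does not show binding.

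With IL4, Cx3cr1 was lower and Igf1 higher than in M0, and most of the other genes lay within 2-fold of M0. In control macrophages, 1 gene was called higher in M2 (3.8% of all genes tested) and 3 lower (6.98%). With regorafenib, 0 of the 9 genes with enough counts were called higher (3.89% of all genes) and 3 lower (4.06%). Cx3cr1 was 18.0-fold lower in control (log2 ratio -4.17, -4.35 to -3.99) and 10.3-fold lower with regorafenib (-3.37, -3.54 to -3.21). Igf1 was 3.41-fold higher in control (1.77, 1.74 to 1.80) and 1.88-fold higher with regorafenib (0.91, 0.88 to 0.93), of which the first was called. In the edgeR fit 31 of 14110 genes (0.22%) passed in M2 against M0 across treatments, and 0 of the 10 genes did, with 1314 genes at an unadjusted p under 0.05. The adjusted p was 0.069 for Cx3cr1 and 0.20 for Igf1. DESeq2 called 416 genes, among them Cx3cr1 (adjusted p = 3.03e-11) and Igf1 (adjusted p = 0.0028). Leaving out any 1 of the 6 libraries brought the adjusted p of Cx3cr1 to between 0.00044 and 0.019. From M0 to M2, the summed monocyte markers went from 54.7 to 25.1 CPM in control and from 56.4 to 22.6 CPM with regorafenib. Most of this sum was Vcan in M0. The endothelial markers went from 142 to 213 CPM and from 209 to 322 CPM, most of it Vwf. Their part in the differences between M2 and M0 was not tested.

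The receptors and ligands showed smaller differences in M2. Axl was called lower in M2 control (log2 ratio -1.02, -1.12 to -0.93) and was 0.49 higher (0.42 to 0.55) with regorafenib. Gas6 and Selenop were called lower with regorafenib only (-1.32, -1.37 to -1.27, and -1.21, -1.23 to -1.18), and their control ratios were -0.21 (-0.27 to -0.16) and -0.50 (-0.55 to -0.44). Whether these ratios differed between the treatments could not be tested with 1 library per condition. Mertk was -0.61 (-0.84 to -0.39) in control and -0.87 (-1.01 to -0.72) with regorafenib, and Pros1, Mfge8 and Folr2 lay between -0.11 and 0.57 in both. Tmem119, with 3 counts in M2 control against 12 in M0 control, had a log2 ratio of -2.25 whose interval ran from -4.71 to -0.36.

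Regorafenib was then compared with control within each state. These comparisons share their libraries with those above, the M0 libraries above all. Selenop and Mertk were higher and Folr2 lower with regorafenib in M0 and in M2, and in M1 none of these genes differed by more than 1.10-fold. In M0, 3 of the 10 genes were called higher, against 8.27% of all genes tested, and 1 was called lower, against 10.2%. In M2 the counts were 3 higher (5.23% of all genes) and 1 lower (4.11%) of 9 genes with enough counts, and in M1 0 higher (1.27%) and 2 lower (2.47%). For M0 the median log2 ratio of the genes was 0.69 beside 0.005 for all genes, for M1 it was 0.09 beside -0.02, and for M2 it was 0.65 beside -0.03. Measures of the whole library moved in M0 and M2 too. The summed level of the 7 macrophage markers went from 30905 to 48689 CPM with regorafenib in M0, from 31474 to 33939 CPM in M1 and from 21861 to 33519 CPM in M2. Most of this sum was Lyz2 (25969 to 42740 CPM in M0 and 16711 to 27447 CPM in M2), and the list did not move together. Cd14 went from 1030 to 499 CPM in M0 and from 271 to 201 CPM in M2, Fcgr1 from 100.01 to 35.9 CPM and from 19.4 to 8.19 CPM, and Itgam from 173 to 126 CPM and from 217 to 130 CPM. The mitochondrial share of counts went from 1.15% to 1.43% in M0, from 0.961% to 1.01% in M1 and from 1.27% to 1.53% in M2. The share of the 10 most abundant genes went from 9.85% to 13.8% in M0, from 14.4% to 14.3% in M1 and from 9.76% to 12.3% in M2. The part of these measures in the differences of Selenop, Mertk and Folr2 was not tested.

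Selenop had the largest difference of the 10 in M0. Its level went from 194 CPM in control to 1390 CPM with regorafenib in M0, from 43.7 to 48.0 CPM in M1 and from 137 to 602 CPM in M2. The regorafenib libraries of M0 and M2 were therefore the highest of the 6, 7.18-fold (log2 ratio 2.84, 2.80 to 2.88) and 4.39-fold (2.13, 2.09 to 2.18) above their controls. Mertk went from 12.4 to 37.3 CPM in M0 (1.59, 1.43 to 1.76), from 109 to 114 CPM in M1 (0.06, -0.02 to 0.14) and from 8.08 to 20.5 CPM in M2 (1.34, 1.14 to 1.55). Folr2 went the other way, from 240 to 85.8 CPM in M0 (-1.48, -1.55 to -1.42), from 55.7 to 60.3 CPM in M1 (0.11, 0.01 to 0.22) and from 308 to 128 CPM in M2 (-1.27, -1.33 to -1.22).

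Other genes were called in 1 state. Axl was 3.8-fold higher with regorafenib in M2 (37.9 and 144 CPM, log2 ratio 1.92, 1.84 to 2.01), and its ratio was 0.41 (0.34 to 0.49) in M0 and 0.44 (0.34 to 0.54) in M1. The highest Axl level of the 6 libraries was thus in M2 with regorafenib and the lowest in M2 control. Gas6 was 2.07-fold higher with regorafenib in M0 (189 and 391 CPM, 1.05, 1.004 to 1.09), just past the 2-fold line. Its ratio was 0.45 (0.09 to 0.81) in M1 and -0.06 (-0.12 to -0.0033) in M2, the latter turning to 0.02 when scaled by total counts. Mfge8 (1.98-fold) and Igf1 (1.96-fold) lay just short of that line in M0, as did Mfge8 (1.94-fold) in M2, where scaling by total counts moved it past the line (log2 ratio 1.03).

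Cx3cr1 and Tmem119 were called lower with regorafenib in M1, both from few counts. Cx3cr1 had 24 counts against 83 (log2 ratio -1.69, -2.41 to -1.02), and its ratio was -0.16 (-0.22 to -0.09) in M0 and 0.64 (0.40 to 0.88) in M2. Tmem119 had 16 counts against 146 (-3.09, -3.93 to -2.34), while in M0 it had 9 against 12 and in M2 2 against 3, for which no ratio is given. The monocyte markers moved with these genes in M1, with a summed level of 116 CPM in control and 56.1 CPM with regorafenib (4 of 4 genes in the table, 1 of them under 10 counts everywhere), most of it Vcan. Their part in the result was not tested. Pros1 was not called in any state (0.15, 0.05 to 0.25, in M0, 0.45, -0.03 to 0.94, in M1 and 0.65, 0.55 to 0.74, in M2).

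**Figure D4:**
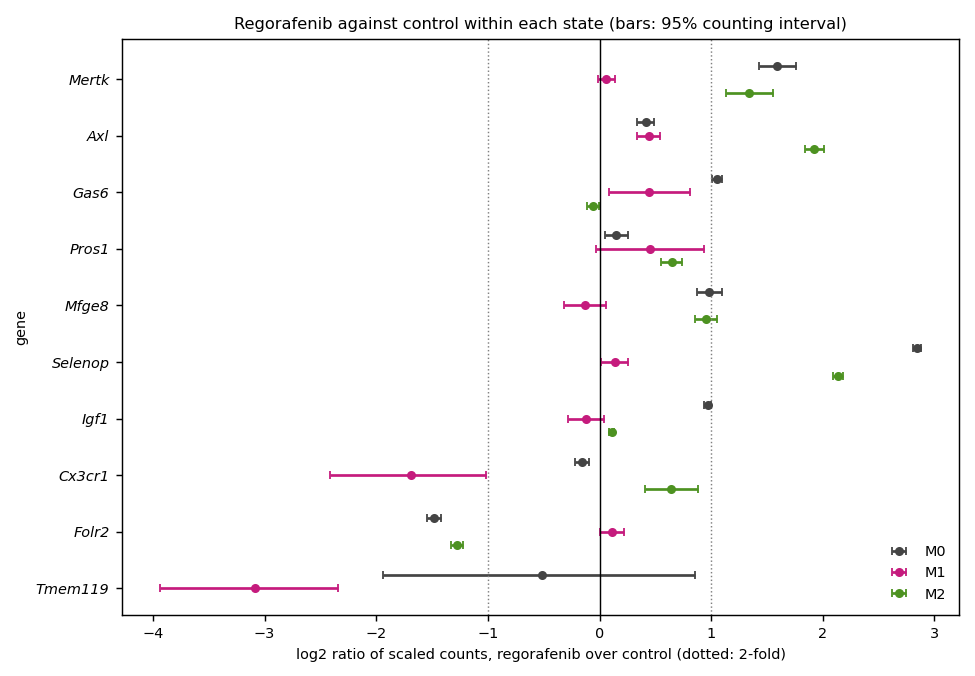
Log2 ratio of scaled counts of regorafenib over control for each gene in M0 (grey), M1 (pink) and M2 (green), with 95% counting intervals and dotted lines at 2-fold. Selenop and Mertk lie to the right and Folr2 to the left of the 2-fold lines in M0 and M2, while their M1 points lie between 0.06 and 0.14.

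Summed markers of other cells also moved with regorafenib. The fibroblast markers (8 of 8 genes in the table, 1 under 10 counts everywhere and none at 0) went from 10.7 to 22.3 CPM in M0, from 24.8 to 31.8 CPM in M1 and from 10.02 to 19.4 CPM in M2. The endothelial markers (6 of 6, 2 under 10 counts everywhere) went from 142 to 209 CPM in M0, from 60.2 to 63.4 CPM in M1 and from 213 to 322 CPM in M2. The neutrophil markers (7 of 7, 3 under 10 counts everywhere, Ly6g at 0) went from 84.8 to 158 CPM in M0, from 157 to 110 CPM in M1 and from 88.8 to 132 CPM in M2. The osteoblast markers (6 of 6, 4 under 10 counts everywhere and none at 0) went from 10.5 to 17.3 CPM in M0, from 8.59 to 9.63 CPM in M1 and from 9.39 to 14.5 CPM in M2. The fibroblast, endothelial and osteoblast sums thus differed more in M0 and M2 than in M1, as Selenop and Mertk did. The most abundant gene of each sum in M0 was Pdgfrb for fibroblasts (7.10 and 11.95 CPM in control and regorafenib), Vwf for endothelium (104 and 191 CPM), Mpo for neutrophils (80.7 and 155 CPM) and Runx2 for osteoblasts (9.31 and 13.7 CPM). Of the defining endothelial markers, Cdh5 and Pecam1 were at most 0.586 and 0.195 CPM in M0. The part of these marker lists in the levels of Selenop, Mertk and Mfge8 was not tested.

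Across the 3 states together, the edgeR fit called 0 of 14110 genes for regorafenib (0% of genes), with 1654 at an unadjusted p under 0.05, and DESeq2 called 297. None of the 10 genes passed. The fitted log2 fold change was 1.74 for Selenop (edgeR adjusted p = 0.37), 0.99 for Mertk (adjusted p = 0.38), 0.92 for Axl (adjusted p = 0.40) and -0.89 for Folr2 (adjusted p = 0.41). The fitted values depended on the M1 libraries. When either M1 library is left out, the state term fits the other exactly. The regorafenib term then rests on the M0 and M2 libraries alone, so the 2 left-out fits are not separate checks. The fitted log2 fold change was then 2.49 for Selenop, 1.47 for Mertk, 1.17 for Axl, 0.97 for Mfge8 and -1.38 for Folr2. DESeq2 on all 6 libraries called Selenop alone of the 10 (adjusted p = 0.013).

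The genes around these 10 were taken from 9 lists of 116 genes. In M1 against M0 across treatments, 17.2% of all genes rose and 19.4% fell in the edgeR fit. Of the receptors for apoptotic cells other than the TAM pair, 6 of 14 tested genes rose (beside 17.2% of all genes) and 3 fell (beside 19.4%), with a median log2 fold change of 0.26, beside -0.07 for all genes. Timd4, a phosphatidylserine receptor, rose by 6.81 (18 and 7 counts in M0, 1324 and 903 in M1, adjusted p = 0.00083) and Cd14 by 2.53 (adjusted p = 0.0030). Integrin chains that bind Mfge8 fell, with fold changes of -3.31 for Itgb3 (adjusted p = 0.0035) and -2.95 for Itgb5 (adjusted p = 0.00075) on the log2 scale, whereas their partner Itgav rose by 0.84 (adjusted p = 0.021). The log2 ratio of Itgb5 with regorafenib was 1.13 in M0, which was called, and 0.72 in M2, which was not. With regorafenib in M0, 3 of 13 genes of this list were called higher (8.27% of all genes) and 5 lower (10.2%). The M2 libraries gave 1 of 13 higher (5.23%) and 4 lower (4.11%), and the M1 libraries 1 of 13 higher (1.27%) and 0 lower (2.47%). The scavenger receptor Cd36 was called lower in M0 and in M2 (-1.29 and -1.91).

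Of the bridging molecules and their signals, 4 of 10 genes rose in M1 and 4 fell, beside 17.2% and 19.4% of all genes. The complement chains C1qa, C1qb and C1qc fell by 2.75, 1.38 and 2.72 (edgeR adjusted p = 0.0010, 0.010 and 0.00045) and Anxa1 by 1.94 (adjusted p = 0.0018). Thrombospondin (Thbs1) rose by 5.47, the scramblase Xkr8 by 2.57, Calr by 1.84 and the "do not eat me" signal Cd47 by 1.12 (adjusted p = 0.0031, 0.0015, 0.0034 and 0.0040). Of the engulfment machinery, 1 of 11 genes rose (17.2% of all genes) and 3 fell (19.4%). The cholesterol exporter Abca1 rose by 3.05 (adjusted p = 0.025), and Elmo1, Elmo2 and Dock1, which activate Rac, fell by 1.64, 0.88 and 1.06 (adjusted p = 0.0031, 0.0076 and 0.0044). Regorafenib left Abca1 higher in M0 and M2 (log2 ratios 2.19 and 2.47), and its ratio in M1 was -0.48.

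Among regulators and effectors of the TAM pathway, 4 of 11 genes rose and 5 fell in M1, beside the same 17.2% and 19.4%. The feedback inhibitors Socs1 and Socs3 rose by 7.46 and 7.13 (edgeR adjusted p = 0.00043 and 0.00020), and the nuclear receptors Nr1h3 and Ppard by 1.14 and 1.72 (adjusted p = 0.0062 and 0.022), while Pparg fell by 5.84 (adjusted p = 0.00043). The sheddase Adam17, which cleaves Mertk from the surface, had a fitted log2 fold change of 0.45 (adjusted p = 0.16). Ppard had a pattern like Mertk, with 467 and 1347 counts in M0, 2117 and 1833 in M1, with 326 and 660 in M2. It was called higher with regorafenib in M0 and M2 (log2 ratios 1.43 and 1.40).

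Of 12 other markers of residence tested, 3 rose (17.2% of all genes) and 5 fell (19.4%) in M1, with log2 fold changes of 10.44 for Marco and -5.29 for Mrc1 (edgeR adjusted p = 0.00020 and 0.00058), and 1 gene rose in M2, where 0.22% of all genes rose or fell. Regorafenib left Id3 higher in M0 and M2 (log2 ratios 1.63 and 1.07) and Cd5l lower (-2.87 and -2.64). Of the microglia genes, 6 of 8 fell in M1 (19.4% of all genes) and 0 rose (17.2%), including Trem2 by 4.25, Olfml3 by 3.88 and P2ry12 by 3.43 (adjusted p = 0.00043, 0.00069 and 0.0025). The median fold change of this list was -2.45, whereas the fitted log2 fold change of Tmem119 was 2.82. With regorafenib, 3 of 9 microglia genes were called higher in M0 (8.27% of all genes), 0 of 7 in M1 (1.27%) and 1 of 8 in M2 (5.23%), and 0 lower in each state (10.2%, 2.47% and 4.11%).

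The last 3 lists held the partners of Selenop, Igf1, Cx3cr1 and Folr2. Of 20 genes tested among the selenoproteins, their synthesis and the Selenop receptor, 4 rose and 4 fell in M1, a share near the 17.2% and 19.4% of all genes. With regorafenib, 2 of the 20 were higher (8.27% of all genes) and 2 lower (10.2%) in M0, 1 higher (1.27%) and 0 lower (2.47%) in M1, and 0 were called in M2 (5.23% and 4.11%). The selenophosphate synthetase Sephs2 was the gene called in M1 (log2 ratio 1.01), and the plasma selenoprotein Gpx3 was higher in M0 (1.35). Lrp8, the receptor that takes up Selenop, was lower with regorafenib in M0 (log2 ratio -1.91) and its ratios were -0.44 in M1 and -0.03 in M2. Igf1r, the receptor of Igf1, was called higher with regorafenib in M0 and M2 (1.47 and 1.24) from 128 to 381 and 120 to 217 counts. Of the 6 tested genes of the IGF system, Igfbp4 fell by 3.47 and Igfbp7 rose by 4.61 in M1 (edgeR adjusted p = 0.0013 and 0.00070), beside 19.4% and 17.2% of all genes. With regorafenib, 3 of 6 genes of the list were called higher in M0 (8.27%), 2 of 5 in M1 (1.27%) and 2 of 6 in M2 (5.23%), with 0 lower in each state (10.2%, 2.47% and 4.11%).

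Fractalkine, the ligand of Cx3cr1, went against its receptor in M1. Cx3cl1 had 29 and 32 counts in M0, 63 and 359 in M1, with 22 and 39 in M2. It was highest in M1 with regorafenib, where Cx3cr1 was lowest, with a log2 ratio to control of 2.61. Of 5 partners in folate and fractalkine handling, 1 rose (17.2% of all genes) and 2 fell (19.4%) in M1, among the latter Folr1, by 2.14 from at most 34 counts (edgeR adjusted p = 0.026). The folate transporter Slc46a1 had between 192 and 400 counts in the 6 libraries and was called in no comparison.

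**Figure D5:**
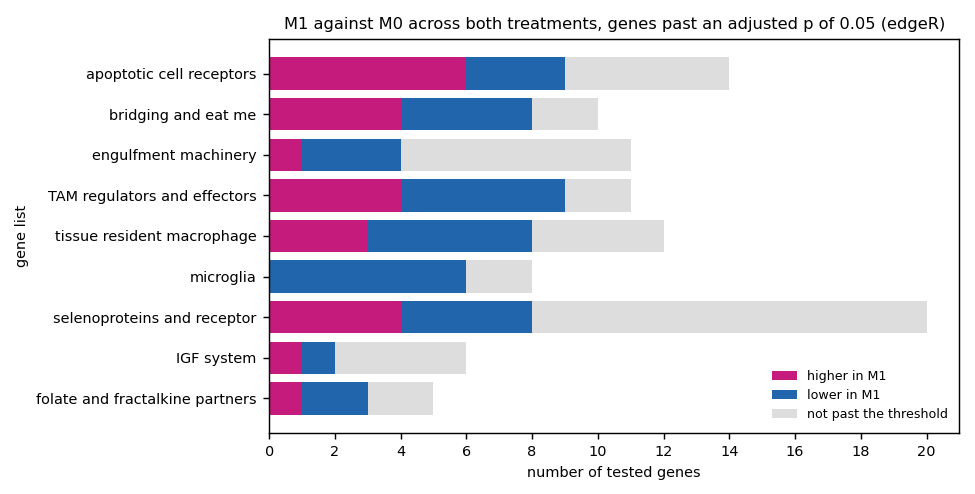
Number of tested genes of each of the 9 lists that were higher (pink), lower (blue) or not past the threshold (grey) in M1 against M0 across both treatments, at an edgeR adjusted p under 0.05. None of the 8 tested microglia genes was higher and 6 were lower, while the other lists held both directions.

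Genes whose pattern over the 6 libraries was most like that of each gene were found by Pearson's r of log2(CPM + 1) among the 11312 genes that reached 100 counts somewhere. With 6 libraries in 3 states, high values are common and do not speak of the size of the change. Mertk was nearest to Sugp1, Cybb and Vamp2 (r = 0.999, 0.998 and 0.997), of which the oxidase subunit Cybb had 9026 and 38857 counts in M0, 173454 and 155402 in M1, with 4757 and 17421 in M2. Gas6 was nearest to Gga2 and Prkag2, Pros1 to Rpl3, Ptgs1 (cyclooxygenase) and Atxn10, and Mfge8 to Gm2a, Ctnnb1 and Arhgap9. Axl had the lowest values, with Zfp213, Dcp1b and Smarcd1 at r = 0.954, 0.95 and 0.95. Selenop was nearest to Smpd1, Zfp157 and Ccdc191, Igf1 to Atrx, Ephx1 and Dennd4c, Cx3cr1 to Smad3, Rps6ka5 and Fam76b, and Folr2 to Dnajc24, S100a10 and Gnl3. Tmem119 was nearest to Saa1, Pcm1 and Gm43181 (r = 0.990, 0.989 and 0.983). Saa1, an acute phase protein, had 191 counts in M1 control, 12 in M1 with regorafenib and 0 in the other 4 libraries, so that it too was held mainly by the M1 control library.

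Reads could be shared with other genes at some of the 10 loci. Of the 100-base words of their transcripts, 11.97% in Selenop lay in the opposite-strand gene Ccdc152 and 42.2% in Folr2 lay in the antisense gene Gm10602, and 0 in the other 8 genes lay in another gene. Ccdc152 had at most 9 counts and Gm10602 30 to 119, below the counts of Selenop and Folr2 in each library. Reads left uncounted for lying in both genes, if there were any, cannot be seen in these counts. The annotated span of Cx3cr1 (chr9:119901616-120069879) overlapped 9 genes. Among them Wdr48 and Gorasp1, with 1809 to 2975 and 691 to 1088 counts, and Csrnp1, with 1252 and 1069 counts in M1, exceeded the 83 and 24 counts of Cx3cr1 in M1, and the other 6 had fewer there. Which strand was counted is not given in the sources used here.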

How the data were processed

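RNA of the 6 BMDM libraries was sequenced as stranded mRNA with paired reads of 100 bases. Per the labels and methods, the authors trimmed reads with cutadapt 2.4 and mapped and counted them per gene with STAR 2.7.2a on GRCm38. The deposited values are whole-number counts per gene, not normalized. Names, lengths and positions came from Gencode M21, where 53229 of 54446 gene IDs matched with their version, 1180 without it and 37 stayed unnamed. Counts were scaled with TMM (edgeR 4.0.16, R 4.3.3). Ratios within a pair of libraries carried the conditional exact binomial 95% interval, with a count of 0 replaced by 0.5 and 3 or fewer counts taken as the floor. The study's own calls used simulated replicates and were not used. The state and treatment terms were tested with edgeR's quasi-likelihood test on the 14110 genes kept by filterByExpr (2 residual degrees of freedom), with Benjamini-Hochberg adjustment over all of them. DESeq2 1.42.0 was the alternative tool. Other scalings, filters, folds and left-out libraries were also tried. The fit was also run on simulated counts, in which every gene had the same dispersion and the effect of treatment did not vary with state. The residual of the real fit holds that variation, so this run does not show how well changes are found here.

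Genes named are the 10, the 3 most alike each, and list genes called with at least 100 counts or known as direct partners. Of the genes that this rule names, 2 are not reported here. The genes, lists and rules were chosen with earlier results of these data known. Tables were handled in Python 3.11.15 (pandas 2.3.3, numpy 2.4.6, scipy 1.17.1), and promoter sequences came from RefSeq (GRCm38.p6).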

Additional observations from a re-analysis of the deposited data

Results flagged for a closer look

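Several of the 10 genes had ratios of opposite sign in a pair of conditions with intervals off 0 in both. With 1 library per condition, the difference was not tested in any of them. For regorafenib against control, Folr2 had a log2 ratio of -1.48 in M0 and 0.11 in M1, and of 0.11 in M1 and -1.27 in M2. Gas6 had 1.05 in M0 and -0.06 in M2, and 0.45 in M1 and -0.06 in M2, of which the M2 value turned to 0.02 when scaled by total counts. Cx3cr1 had -0.16 in M0 and 0.64 in M2, and -1.69 in M1, from 24 and 83 counts, and 0.64 in M2. For M2 against M0, Axl had -1.02 in control and 0.49 with regorafenib, and Pros1 had -0.11 in control and 0.39 with regorafenib.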

How the results depend on the processing

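No paired analysis was possible because the labels give no replicate numbers and each condition has 1 library. The depth limits Tmem119 in every state and Cx3cr1 in M1, and no call between a pair of libraries has a replicate check. At least 4-fold in place of 2-fold gave, for regorafenib, calls for 731 of 13964 genes in M0, 120 of 13440 in M1 and 335 of 13813 in M2. Of the 10 genes, 1 stayed higher and 0 lower in M0, 1 lower in M1, and 1 higher and 0 lower in M2. For M1 against M0 it gave 2630 of 14168 genes in control and 2587 of 14159 with regorafenib (0 of the 10 higher there). For M2 against M0 it gave 411 of 13830 in control (0 of the 10 higher) and 339 of 13841 with regorafenib (1 of the 10 lower). With 1 CPM added to both values, 1495 of 13964, 154 of 13440 and 565 of 13813 genes were called for regorafenib in M0, M1 and M2. For M2 against M0, 780 of 13830 genes were called in control and 451 of 13841 with regorafenib. In M1 against M0 with regorafenib, 1 of the 10 was higher, as it was with scaling by total counts. DESeq2, on the same 14110 genes as the main fit, called 416 for M2 against M0 (2 of the 10) and 297 for regorafenib across states (1 of the 10). With no filter on low counts, and so with more than 14110 genes, edgeR called 408 (2 of the 10) and 333 (1 of the 10). The cause was not tested. Leaving out each library in turn gave 4220 to 5090 genes for M1 against M0 (7 to 9 of the 10), 75 to 284 for M2 against M0 (1 to 2 of the 10) and 0 to 898 for regorafenib (0 to 4 of the 10), the highest without M1 control and the next, 892, without M1 regorafenib. For M2 against M0, the fitted log2 fold change of Axl turned to 0.17 without M0 control and 0.49 without M2 control (range -1.02 to 0.49 over the left-out libraries), that of Pros1 to -0.067 without M0 regorafenib and -0.043 without M2 regorafenib (range -0.067 to 0.35), and that of Selenop to 0.078 without M0 regorafenib (range -1.62 to 0.078). For regorafenib, Igf1 turned to -0.0029 without either M0 library (range -0.0029 to 0.54), and Cx3cr1 to 0.22 without either M1 library (range -0.78 to 0.22). None of these values passed the threshold before or after. Of the 280 fitted values of the 10 genes under the alternatives, 241 kept their direction and their side of the threshold, 27 moved past it, 3 fell short of it and 9 turned.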
